A study of Danio rerio with 8 samples.

Results

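Hearts are patterned and kept contractile by a small set of transcription factors that bind to each other's genes and to genes of the contractile apparatus. The GATA factors are zinc-finger proteins, Tbx5 and Tbx20 are T-box proteins, Hand2 is a basic helix-loop-helix protein, Nkx2.5 is a homeodomain protein, and the Mef2 proteins are MADS-box factors of muscle. In zebrafish embryos, loss of gata5, hand2 or tbx5a disturbs heart formation, and several of these genes are also known from work on heart regeneration. Their 10 genes, gata4, gata5, gata6, tbx5a, tbx20, hand2, nkx2.5, mef2aa, mef2ca and mef2d, were taken by zebrafish symbol from a table of 32520 genes. All 10 were found and all 10 passed the filter on low counts, which left 13604 genes for testing.

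The data are bulk RNA sequencing of ventricles of adult zebrafish that were not injured themselves, each library being made from a pool of 4 siblings. The group called Pu-Fu had uninjured fathers and the group called Pi-Fu had fathers whose ventricle had been wounded by freezing (cryoinjury) and that were mated 7 days after it; the mothers of both groups were uninjured. Each group has 4 libraries, numbered 1, 3, 4 and 5 in Pu-Fu and 1, 2, 4 and 7 in Pi-Fu, and the labels give no strain, age or transgene for either. They do not say whether pools within a group had different fathers. A p-value here therefore reflects variation from pool to pool, part of which may be technical.

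Libraries held 8441014 to 16290169 counts, and the 10 genes together took 0.0594% to 0.0988% of them. The heart muscle markers vmhc, myl7, tnnt2a, cmlc1 and tnni1b were abundant in all 8 libraries, with summed levels of 101170 to 130215 CPM (counts of a gene per 1e6 counts of the library, scaled by the TMM method) in Pu-Fu and 89714 to 121281 CPM in Pi-Fu. The atrial myosin gene myh6 was at 192 ± 63.1 CPM in Pu-Fu and 187 ± 94.6 CPM in Pi-Fu (SD, n = 4). Summed leukocyte markers (5 matched of 7) ranged from 23.4 to 35.0 CPM in Pu-Fu and from 23.2 to 45.1 CPM in Pi-Fu. Among them, the neutrophil gene lyz was at 0 counts in all libraries. Summed red blood cell markers (5 matched of 7) ranged from 398 to 713 CPM in Pu-Fu and from 558 to 1812 CPM in Pi-Fu, with the highest value in Pi-Fu library 4. Libraries Pu-Fu 4 and Pi-Fu 4 most often held the extremes of the 8: the former was the highest in 24.0% and the lowest in 21.0% of tested genes, the latter the highest in 20.3% and the lowest in 21.0%.

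Among the 10 genes, hand2 and gata5 were by far the most abundant. On the scale of CPM per kilobase of annotated exons, hand2 was at 132 ± 55.9 and gata5 at 110 ± 26.9 (SD, n = 8 libraries), and these 2 levels did not differ beyond their spread, hand2 being the higher in 5 of 8 libraries. A second tier held gata4 at 26.0 ± 6.70 and tbx20 at 24.1 ± 6.67 CPM per kilobase. Then came tbx5a (12.4 ± 3.57), mef2ca (11.2 ± 4.07), nkx2.5 (10.4 ± 7.14), gata6 (10.1 ± 2.44), mef2d (8.58 ± 2.77) and mef2aa (5.50 ± 2.53), on the same scale. Within a library, 3 steps of this order were seen in 8 of 8 libraries: gata5 above gata4, tbx20 above tbx5a, and mef2d above mef2aa. For each of these, the exact two-sided sign-flip permutation test over libraries gave p = 0.0078, the smallest it can give, and an adjusted p of 0.023 over the 9 neighbouring pairs. The other 6 neighbouring pairs did not pass, with adjusted p from 0.14 to 0.58 in that exact test. The order was set by the means over the same 8 libraries, so the test is not independent of the choice of pairs. The annotated exons of mef2ca (6913 bases) and mef2d (7228 bases) combine many transcripts, which lowers a level per annotated kilobase if only short forms are made. The place of gata4 also rests on its short annotated length of 1214 bases. In CPM its means were 34.5 in Pu-Fu and 28.6 in Pi-Fu. On that scale mef2ca (91.9 and 62.7), mef2d (69.8 and 54.2) and tbx20 (57.9 and 44.4) were above it.

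**Figure D1:**
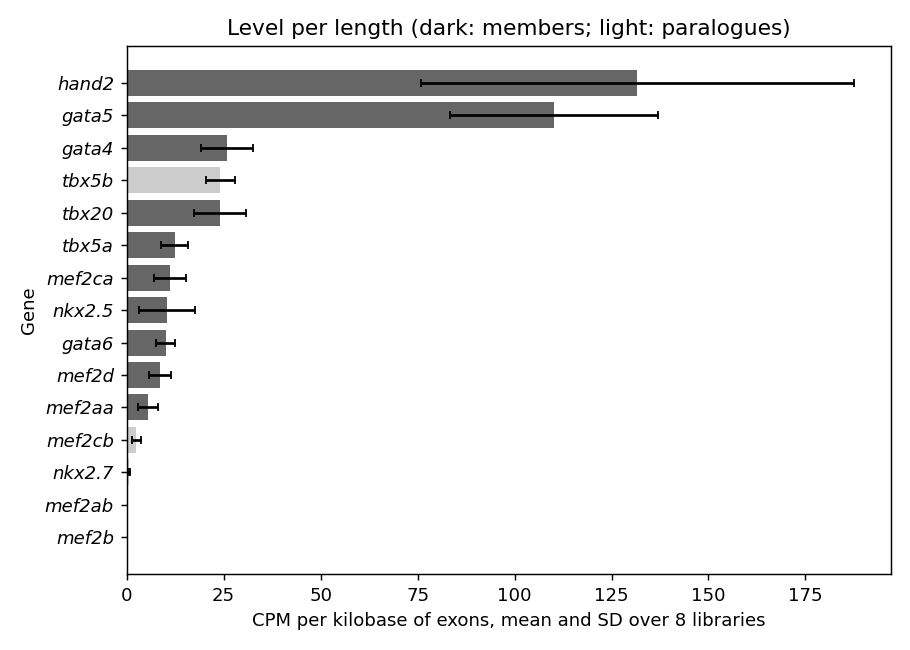
Level per length (CPM per kilobase of annotated exons, linear axis from 0) of the 10 genes in dark bars and of 5 paralogues in light bars, as the mean over 8 libraries with the SD as error bar. hand2 and gata5 lie above 100 while every other gene is below 30.

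Within each family the paralogues had unequal levels. Of the summed level per length of gata4, gata5 and gata6, gata5 made up a median of 76.9% over the libraries, gata4 17.3% and gata6 6.81%. The share of gata5 was lowest, at 58.9%, in Pu-Fu library 4. In the mef2 family mef2ca made up a median of 39.9%, mef2d 31.1%, mef2aa 20.6% and mef2cb 9.47%, while mef2ab and mef2b had at most 6 and 11 counts in a library. tbx5b, the paralogue of tbx5a, was the more abundant of that pair with a median share of 66.5% per length. nkx2.5 took a median of 93.5% of the sum with its paralogue nkx2.7, which had 3 to 17 counts.

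The comparison of Pi-Fu with Pu-Fu asked whether injury of the father is accompanied by other levels of these genes in the heart of the offspring. None of the 10 passed the edgeR quasi-likelihood test after adjustment over all genes, and edgeR called 0 of all 13604 genes (0% of the background). At an unadjusted p under 0.05 edgeR found 2 of the 10, gata6 and mef2aa, both lower in Pi-Fu; of all tested genes 7.14% reached that threshold, 3.47% with a lower and 3.67% with a higher level. DESeq2 called 0 of the 10, where it called 57 of the 14294 genes to which it gave an adjusted p (0.399%). It too had 2 of the 10 at an unadjusted p under 0.05, where 1194 of the 23042 genes it tested had such a p. The groups overlapped in all 10, whereas they did not overlap in 4.18% of all tested genes. In bulk tissue, fewer cells of a type and less RNA per cell cannot be told apart.

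Of the 10 log2 folds, 8 were negative, against 51.4% of all tested genes, and their median was -0.32 against -0.01 for all genes. When single libraries were left out the median ran from -0.39 (without Pu-Fu library 5) to -0.14 (without Pi-Fu library 4). It was -0.16 without Pu-Fu library 4. The median was -0.05 when the haemoglobin share of counts entered the model, where 6 of the 10 were negative. That share was 0.0306% to 0.0577% in Pu-Fu and 0.0440% to 0.144% in Pi-Fu, and was highest in Pi-Fu library 4. It tended to be higher in Pi-Fu, so this model cannot separate blood content from the group or from that library. With the share in the model the SE rose for each of the 10 except gata4. For tbx20 it went from 0.27 to 0.32 and for nkx2.5 from 0.54 to 0.69. Whether blood content accounts for the lower levels was not tested. Folds also went with gene length over the whole table: the shortest tercile of tested genes (up to 1959 bases) had a median log2 fold of 0.07, and the longest tercile (from 3561 bases) of -0.10. Of the 10, the 3 in the shortest tercile are gata4, hand2 and nkx2.5. Of these 1 was negative, against 40.34% of all tested genes in that tercile. The 5 in the middle tercile were all negative, where 51.77% of all tested genes were and the median log2 fold was -0.01. The 2 in the longest were negative too, against 62.05%.

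**Figure D2:**
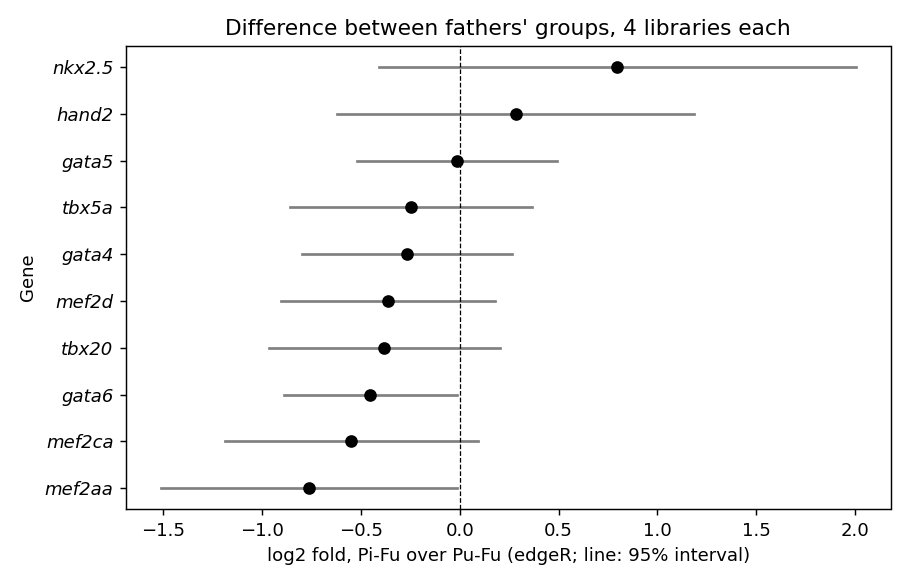
Log2 fold of Pi-Fu over Pu-Fu for each of the 10 genes (points, edgeR) with its 95% interval (lines), 4 libraries per group. Only the intervals of gata6 and mef2aa leave out 0, before any adjustment for the number of genes tested.

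gata6 lies on GRCz11 chromosome 2, 4207209 to 4217887 (ENSDARG00000103589), and encodes a zinc-finger factor of heart muscle and endoderm. It was at 31.1, 26.5, 37.6 and 25.3 CPM in Pu-Fu libraries 1, 3, 4 and 5, and at 23.4, 26.9, 17.1 and 20.8 CPM in Pi-Fu libraries 1, 2, 4 and 7. Of the Pi-Fu libraries 3 lay below all of Pu-Fu, while library 2 fell within its range. Means were 22.1 ± 4.16 CPM in Pi-Fu and 30.1 ± 5.59 CPM in Pu-Fu (SD, n = 4), a log2 fold of -0.45 (SE 0.20; 95% interval -0.89 to -0.01; edgeR adjusted p = 0.69). The log2 fold ranged from -0.56 to -0.33 when single libraries were left out, and was -0.25 once the haemoglobin share entered the model.

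gata4 (chromosome 20, 52952116 to 52967878; ENSDARG00000098952) encodes the GATA factor best known from heart muscle growth, and a gata4 enhancer marks regenerating heart muscle in zebrafish. Its levels were 33.6, 30.4, 43.3 and 30.6 CPM in Pu-Fu libraries 1, 3, 4 and 5, against 23.1, 31.5, 19.0 and 41.0 CPM in Pi-Fu libraries 1, 2, 4 and 7. Of the Pi-Fu libraries 2 lay below all of Pu-Fu and 2 within its range, and the log2 fold of -0.27 (SE 0.24; edgeR adjusted p = 0.82) had an interval from -0.80 to 0.26. Leaving out single libraries moved it from -0.50 (without Pi-Fu library 7) to -0.12 (without Pi-Fu library 4), and it was 0.10 once the haemoglobin share entered the model.

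gata5 (chromosome 23, 7379728 to 7391028; ENSDARG00000017821) encodes the factor mutated in the zebrafish faust line, which acts in heart muscle and endocardial precursors. It had the closest group means of the 10, at 253 ± 60.4 CPM in Pi-Fu and 256 ± 73.1 CPM in Pu-Fu (SD, n = 4), a log2 fold of -0.01 (SE 0.23; edgeR adjusted p = 0.99). The 95% interval, -0.52 to 0.49 on the log2 scale, spans 0.697-fold to 1.41-fold. Levels were 294, 230, 166 and 333 CPM in Pu-Fu and 263, 207, 208 and 335 CPM in Pi-Fu, in the library order given above, so the groups shared their upper end and Pu-Fu reached lower.

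Both T-box genes were lowest in Pi-Fu library 4. tbx20 (chromosome 16, 42509011 to 42523744; ENSDARG00000005150) encodes a factor that maintains adult heart muscle in mice. It was at 61.9, 54.7, 64.6 and 50.4 CPM in Pu-Fu and at 63.9, 51.0, 22.5 and 40.4 CPM in Pi-Fu. Pi-Fu libraries 1 and 2 lay in the range of Pu-Fu, and libraries 4 and 7 below it. The log2 fold was -0.38 (SE 0.27; edgeR adjusted p = 0.77), which became -0.61 without Pi-Fu library 1, -0.17 without Pi-Fu library 4 and -0.06 once the haemoglobin share entered the model.

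tbx5a (chromosome 5, 72264192 to 72289648; ENSDARG00000024894) encodes the factor lost in the zebrafish heartstrings mutant; the human TBX5 gene is mutated in Holt-Oram syndrome. Levels were 28.9, 29.3, 34.6 and 23.3 CPM in Pu-Fu and 35.8, 30.2, 13.7 and 18.4 CPM in Pi-Fu. The highest value of the 8 and the lowest both fell in Pi-Fu. The log2 fold was -0.25 (SE 0.28; edgeR adjusted p = 0.85), which became -0.49 without Pi-Fu library 1, -0.05 without Pi-Fu library 4 and -0.03 once the haemoglobin share entered the model.

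The muscle factor genes of the mef2 family had negative log2 folds, led by mef2aa (chromosome 18, 23187419 to 23356077; ENSDARG00000031756). Mef2 proteins activate contractile and metabolic genes, and class IIa histone deacetylases hold them in check. mef2aa was at 20.3, 19.9, 33.3 and 14.1 CPM in Pu-Fu and at 18.8, 16.6, 6.75 and 9.75 CPM in Pi-Fu; libraries 1 and 2 of Pi-Fu lay in the range of Pu-Fu and libraries 4 and 7 below it. Means were 13.0 ± 5.67 CPM in Pi-Fu and 21.9 ± 8.10 CPM in Pu-Fu (SD, n = 4), a log2 fold of -0.76 (SE 0.34; 95% interval -1.51 to -0.01; edgeR adjusted p = 0.70). It was -0.49 without Pu-Fu library 4 and -0.50 once the haemoglobin share entered the model. Of its 3175 exonic bases, 77 overlap another annotated gene, and reads there were not counted.

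mef2ca (chromosome 10, 43544814 to 43655449; ENSDARG00000029764), which in zebrafish embryos acts in the jaw and, together with mef2cb, in heart muscle differentiation, was at 75.7, 100.2, 125 and 66.6 CPM in Pu-Fu and at 34.5, 52.3, 74.0 and 90.1 CPM in Pi-Fu. Here Pi-Fu libraries 1 and 2 were the low ones, and not 4 and 7 as for mef2aa, tbx20 and tbx5a. The log2 fold was -0.55 (SE 0.29, edgeR adjusted p = 0.72), -0.35 without Pi-Fu library 1 and -0.36 without Pu-Fu library 4. It ranged from -0.78 to -0.35 when single libraries were left out. Once the haemoglobin share entered the model it was -0.60.

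mef2d (chromosome 16, 29072874 to 29194517; ENSDARG00000040237) was at 60.7, 59.3, 107 and 52.2 CPM in Pu-Fu and at 59.4, 47.7, 41.6 and 68.2 CPM in Pi-Fu. Pu-Fu library 4 alone stood far above the others. The log2 fold was -0.36 (SE 0.25, edgeR adjusted p = 0.76), and -0.17 once the haemoglobin share entered the model. It ranged from -0.50 to -0.08 (without Pu-Fu library 4) when single libraries were left out. The paralogue mef2cb was at 13.9 ± 4.24 CPM in Pi-Fu and 21.4 ± 9.35 CPM in Pu-Fu (SD, n = 4). Its log2 fold was -0.62 (SE 0.33, edgeR adjusted p = 0.72). That fold ranged from -0.85 to -0.33 (without Pu-Fu library 4) when single libraries were left out.

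hand2 and nkx2.5 were the 2 genes with positive log2 folds. hand2 (chromosome 1, 38193147 to 38195012; ENSDARG00000008305), which drives growth of the heart muscle pool in zebrafish embryos, was at 228, 108, 79.5 and 364 CPM in Pu-Fu and at 185, 261, 229 and 274 CPM in Pi-Fu. All Pi-Fu values lay inside the wide range of Pu-Fu, whose coefficient of variation was 66.5% against 16.8% in Pi-Fu (no test of the spread was made). The log2 fold was 0.28 (SE 0.41; edgeR adjusted p = 0.88), with 0.02 without Pu-Fu library 4, 0.77 without Pu-Fu library 5 and 0.67 once the haemoglobin share entered the model.

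nkx2.5 (chromosome 14, 24241241 to 24244034; ENSDARG00000018004), the homeodomain gene that marks heart precursors and keeps ventricular identity in zebrafish embryos, varied most of the 10, by 7.63-fold over the libraries. It was at 6.79, 5.52, 19.3 and 18.7 CPM in Pu-Fu and at 16.3, 7.69, 20.9 and 42.1 CPM in Pi-Fu, from 69 to 722 counts. Both groups thus held low and high libraries, and Pi-Fu library 7 was the highest. The log2 fold was 0.80 (SE 0.54, 95% interval -0.41 to 2.004, edgeR adjusted p = 0.77). It was 0.25 without Pi-Fu library 7, 1.08 without Pu-Fu library 4 and 1.14 once the haemoglobin share entered the model.

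**Figure D3:**
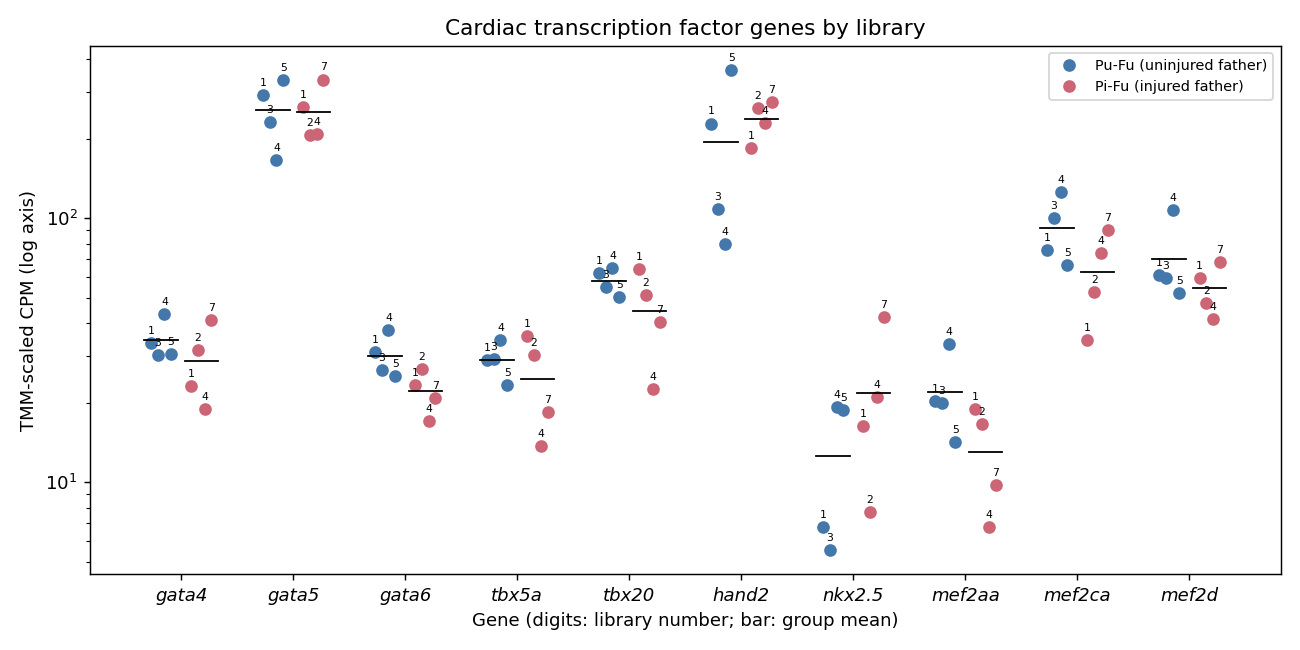
TMM-scaled CPM (log axis) of each gene in each library, blue for Pu-Fu and red for Pi-Fu, with the library number over each point and the group mean as a bar. The groups overlap in all 10 genes. Pu-Fu library 4 is the highest of the 8 in 6 genes, against 24.0% of all tested genes. Pi-Fu library 4 is the lowest in 6, against 21.0%.

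Across libraries some of the 10 genes went together and others did not. Of 45 pairs, 4 passed an exact permutation test of Pearson's r of log2 CPM after Benjamini-Hochberg adjustment over the 45, and they join tbx20, tbx5a, mef2aa and gata6. For tbx5a with tbx20 r was 0.946 over 8 libraries (exact permutation p = 0.00074, adjusted 0.017; Spearman's rho 0.881, exact permutation p = 0.0072, adjusted 0.11). For gata6 with mef2aa r was 0.943 (exact permutation p = 0.0015, adjusted 0.017; rho 0.881, exact permutation p = 0.0072, adjusted 0.11). For tbx5a with mef2aa r was 0.927 (exact permutation p = 0.0012, adjusted 0.017; rho 0.714, exact permutation p = 0.058, adjusted 0.32). For tbx20 with mef2aa r was 0.909 (exact permutation p = 0.00030, adjusted 0.013; rho 0.929, exact permutation p = 0.0022, adjusted 0.10). Taken as deviations from the group means, these 4 values were 0.947, 0.912, 0.953 and 0.879 in the same order. An r above 0.9 was not particular to these pairs. Of 6698 tested genes outside the set, 130 reached it with mef2aa, 75 with gata6, 53 with tbx20 and 32 with tbx5a.

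These relations were recomputed without extreme libraries. Without the 2 libraries farthest from the median of the first gene named, r was 0.761, 0.761, 0.669 and 0.746 in the same order, and 1 of the 4, tbx20 with mef2aa, kept an exact permutation p under 0.05 (p = 0.040). Without the 2 farthest from the median of the second gene named, r was 0.761, 0.761, 0.893 and 0.918. The points share library depth, scaling and amplification. gata5 with hand2 (r = 0.709, exact permutation p = 0.050, adjusted 0.24; rho 0.595, exact permutation p = 0.13, adjusted 0.43) did not pass, and r was 0.408 without the 2 libraries farthest from the median of gata5. hand2 had a negative r with 7 of the other genes, down to -0.68 with mef2d, none of which passed.

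**Figure D4:**
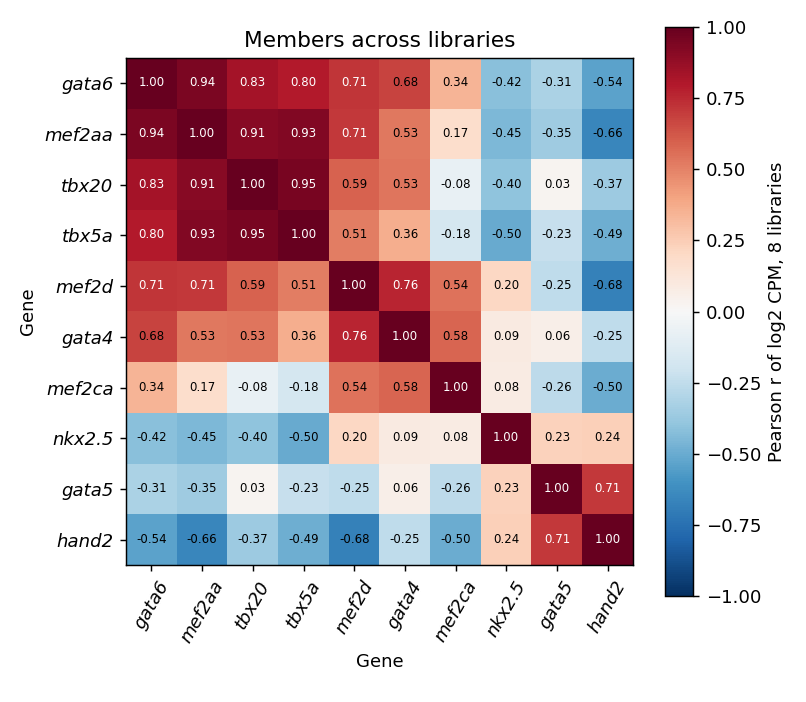
Pearson's r of log2 CPM over 8 libraries for each pair of the 10 genes (colour and number). gata6, mef2aa, tbx20 and tbx5a form a block of r from 0.80 to 0.95, and hand2 has its highest r, 0.71, with gata5.

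Among 6698 tested genes outside the set whose mean log2 CPM was 3 or more, the gene with the profile most like each member was sought by the same r, as a description over 8 libraries. mef2d was most like ZNF207 (r = 0.997), mef2aa like HIPK3 (0.992), tbx20 like PRKAA2 (0.982), gata5 like ACTR2 (0.979), hand2 like LPAR6 (0.976), tbx5a like PPTC7 (0.974), gata6 like AFDN (0.971) and gata4 like RORA (0.966). mef2ca (crema, 0.921) and nkx2.5 (CBR1, 0.907) had lower values. Each r is the highest of 6698 over only 8 libraries, so high values arise in part from the search itself. None of them was tested. For mef2d 306 genes had r above 0.9, and for nkx2.5 it was 1 gene.

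Partners of these factors also had mostly negative log2 folds. The list held cofactors such as the Friend of GATA genes, the Srf and Mrtf genes, class IIa histone deacetylases, p300 genes, Tead genes and chromatin subunits. Of 28 listed, 26 were matched and 21 tested. Of these, 20 had a negative log2 fold, against 51.4% of all tested genes, with a median of -0.40. None passed the edgeR test after adjustment. At an unadjusted p under 0.05 edgeR found 1 of the 21, against 7.14% of all tested genes. That gene was mrtfbb, a coactivator of serum response factor, at 13.4 ± 3.09 CPM in Pi-Fu and 20.2 ± 7.60 CPM in Pu-Fu (SD, n = 4, log2 fold -0.60, edgeR adjusted p = 0.70). Its log2 fold ranged from -0.72 to -0.31 (without Pu-Fu library 4) when single libraries were left out. The acetyltransferase gene ep300a (log2 fold -1.02, SE 0.51) and cited2, which binds p300 (-0.77, SE 0.42), came next by p. These were -0.24 for ep300a without Pu-Fu library 4 and -0.17 for cited2 without Pu-Fu library 5. Pu-Fu library 4 was the highest of the 8 in 14 of the 21, against 24.0% of all tested genes. Pi-Fu library 4 was the lowest in 17, against 21.0%. Without Pu-Fu library 4, 15 of 21 were negative with a median of -0.16, and without Pi-Fu library 4, 18 of 22 with a median of -0.18. Once the haemoglobin share entered the model 11 of 21 were negative, with a median of -0.02. Of the 21, 13 lie in the longest tercile of genes, and 12 of these were negative, against 62.05% of all tested genes there. All 3 in the middle tercile and all 5 in the shortest were negative too, against 51.77% and 40.34%.

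Paralogues and other heart transcription factors were divided. Of 9 paralogues 5 were tested. Of these, 4 had negative log2 folds, against 51.4% of all tested genes, and none had an unadjusted p under 0.05 in edgeR. The gene gata1a, a factor of red blood cells, was at 0.864 ± 0.229 CPM in Pi-Fu and 0.494 ± 0.214 CPM in Pu-Fu (log2 fold 0.83, SE 0.44). It had only 3 to 20 counts in a library, and it passed the low-count filter in 6 of the 8 fits that left out a library. Of 39 other cardiac factors 38 were matched and 26 tested, 13 with negative and 13 with positive log2 folds and a median of 0.001. Of the 26, 1 had an unadjusted p under 0.05, against 7.14% of all tested genes: nr2f1a, a nuclear receptor gene that in zebrafish maintains atrial identity. It was at 3.80, 3.44, 2.74 and 3.28 CPM in Pu-Fu and at 6.91, 6.37, 5.84 and 4.09 CPM in Pi-Fu, without overlap, as in 4.18% of all tested genes. Its log2 fold was 0.80 (SE 0.25; edgeR adjusted p = 0.56). The atrial myosin gene myh6 had a log2 fold of -0.04 (SE 0.44). The summed atrial markers (myh6, tbx5b and nr2f1a) overlapped, at 172 to 320 CPM in Pu-Fu and 80.0 to 304 CPM in Pi-Fu. Most of that sum is myh6, so it says little about nr2f1a. The metabolic coactivator gene ppargc1a (-0.73, SE 0.39) and the epicardial gene wt1a (0.47, SE 0.29) came next. ppargc1a was at -0.36 without Pu-Fu library 4 and -0.26 once the haemoglobin share entered the model, and wt1a at 0.30 without Pi-Fu library 2 and 0.28 once it did.

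The last list held heart genes taken as target genes of these factors. Whether the factors regulate them in these hearts was not tested. Of 31 listed, 27 were matched and 24 tested. Of these, 20 had a negative log2 fold, against 51.4% of all tested genes, with a median of -0.18. Once the haemoglobin share entered the model 21 of 24 were negative, with a median of -0.18. Without Pu-Fu library 4, 16 of 24 were negative with a median of -0.14, and without Pi-Fu library 4, 20 of 24 with a median of -0.20. None passed after adjustment, and 1 had an unadjusted p under 0.05 in edgeR, against 7.14% of all tested genes: the troponin C gene tnnc1a, at 1923 ± 343 CPM in Pi-Fu and 2549 ± 328 CPM in Pu-Fu (SD, n = 4; log2 fold -0.41, edgeR adjusted p = 0.63). The sodium-calcium exchanger gene slc8a1a was at 1339, 1268, 1395 and 1315 CPM in Pu-Fu and at 1243, 1102, 657 and 1148 CPM in Pi-Fu, the 1 gene of these 24 whose groups did not overlap, against 4.18% of all tested genes (log2 fold -0.36, SE 0.18; edgeR adjusted p = 0.72). Its log2 fold ranged from -0.46 to -0.19 (without Pi-Fu library 4) when single libraries were left out. Once the haemoglobin share entered the model it was -0.08. The creatine kinase gene ckmb had a log2 fold of -0.68 (SE 0.31). That fold ranged from -0.89 to -0.35 (without Pu-Fu library 4) when single libraries were left out. The natriuretic peptide gene nppa (0.08, SE 0.15), a target of Nkx2.5, Gata4 and Tbx5 in mammals, and the contractile genes myl7 (-0.10, SE 0.14), vmhc (-0.16, SE 0.14) and tnnt2a (-0.10, SE 0.14) had log2 folds about as small as their SE or smaller, as did nppb (-0.27, SE 0.58). In the 10 factor genes the SE ran from 0.20 to 0.54.

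**Figure D5:**
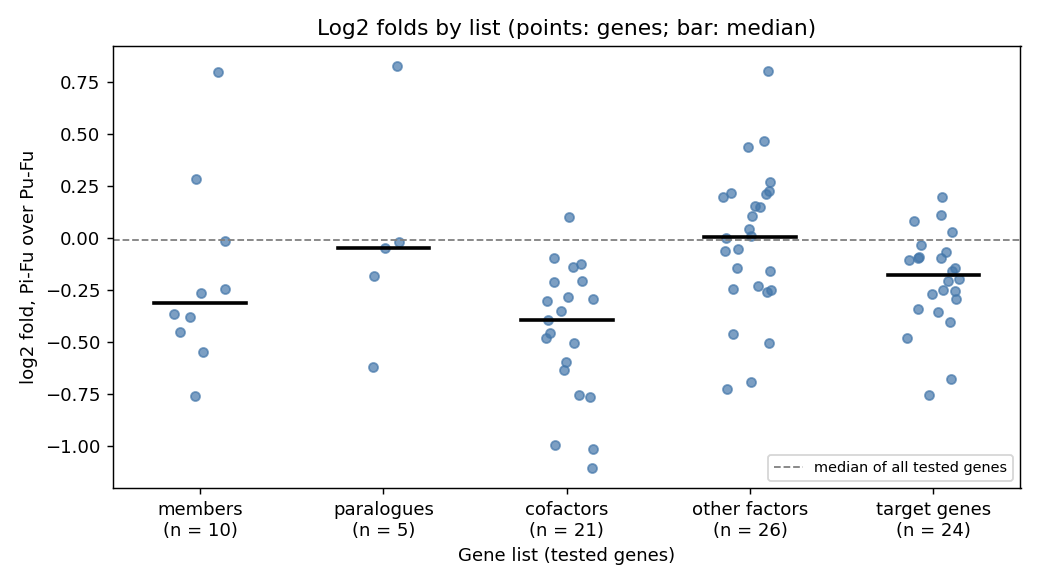
Log2 fold of Pi-Fu over Pu-Fu (edgeR) for each tested gene of 5 lists, with the median of each list as a bar and the median of all tested genes as a dashed line. The medians are -0.32 for the 10 genes, -0.05 for paralogues, -0.40 for cofactors, 0.001 for other factors and -0.18 for target genes.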

How the data were processed

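Per the labels' protocols, atrium and bulbus were removed, 1 ng of RNA was amplified with the Ovation Single Cell kit and read as 60-base single reads. The authors deposited raw counts of reads per gene, made with featureCounts 2.0.3 on GRCz11, Ensembl release 111, with strand option 0, per the file headers; alignment with STAR 2.7.10a is per the submitters' processing notes. Without strand, antisense reads count too, and intervals cover counts of amplified reads rather than molecules.

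Of the 10 genes, 6 matched a gene name directly and 4 (tbx5a, nkx2.5, mef2aa, mef2ca) matched a RefSeq synonym or base symbol on the same chromosome; 136 of 147 list symbols matched. Groups were compared with the edgeR 4.0.16 quasi-likelihood test (R 4.3.3): TMM factors, filterByExpr with a minimum count of 10, Benjamini-Hochberg adjustment over all tested genes, threshold 0.05. The SE was derived from the test, as the size of the log2 fold divided by the root of F. Pairs used log2 CPM with a prior count of 2. In 5 simulations of this comparison with 200 of 13604 genes changed, 24.1% of genes at a fold of 2 and 86.0% at a fold of 4 were recovered, with 5.34% of calls false. The simulated counts were drawn independently for each gene, without library shifts shared by many genes. These rates may therefore not hold for the real libraries. Alternatives used limma 3.58.1, DESeq2 1.42.0, other scalings and filters, the share of 9 haemoglobin genes as a covariate, and leaving out each library. Replicates of a group differed by more than sampling noise, and each was counted once. Separate amplifications of the same RNA could also differ by more than sampling noise, so this does not show that the libraries are independent.

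The 10 genes and the lists were chosen with earlier results of these data known. Beyond the 10, the genes named are up to 3 per list with the smallest p, plus myl7, vmhc, nppa, nppb, tnnt2a and myh6; gata3, also in this rule, had a log2 fold of -0.18 (SE 0.41).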

Additional observations from a re-analysis of the deposited data

Results flagged for a closer look

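Within the 20 groups of 4 libraries tested for a single far value (10 genes in each of Pu-Fu and Pi-Fu), 1 stood out: mef2d at 107 CPM in Pu-Fu library 4, whose gap to the next library was 0.844 of the group's range, above Dixon's 95% critical value for 4 samples. Chance flags about 1 in 20 groups. In 6 of the 10 genes that library was above all others, as it was in 24.0% of all tested genes.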

How the results depend on the processing

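None of the 10 genes was called under any of the 18 alternatives. The count of the 10 at an unadjusted p under 0.05 was 2 in the main test. It was 0 with upper-quartile factors, library sizes alone, the stricter filter (50 counts in 4 libraries) or the haemoglobin share in the model. With voom quality weights it was 1, where 1150 of 13604 tested genes had such a p. That gene was mef2ca rather than gata6 or mef2aa. The count was 0 to 4 when single libraries were left out. It was 4 without Pu-Fu library 5, where 1268 of 13869 tested genes had such a p. The count of the 10 with no overlap between groups, 0 in the main test, was 0 to 1 without single libraries. The share of all tested genes was not computed for those fits, so the 1 is not a result about the 10. Over all genes, 971 had such a p (499 higher, 472 lower); 635 did with the stricter filter, 466 with the haemoglobin share, 637 to 1328 without single libraries, and with library sizes alone the split was 761 and 267. DESeq2 called 57 genes. The sign of gata5 turned with upper-quartile factors (0.0166), library sizes alone (0.0708), limma voom (0.0110), the haemoglobin share (0.22) and the replicate block (0.0824), and ranged from -0.18 to 0.13 without single libraries. With the haemoglobin share gata4 (0.10), nppa (-0.0909) and nppb (0.18) also turned; nppb ranged from -0.90 to 0.46 without single libraries. The cause was not tested. The replicate numbers 1 and 4 occur in both groups, and the labels do not say whether they mark a shared day or batch. Deviations of same-numbered libraries had r of 0.115 and -0.281, and 2 such values cannot settle whether the libraries are paired. With the replicate block, which rests on 2 pairs, 20 genes and none of the 10 were called, and the median log2 fold of the 10 was -0.72. List counts under the alternatives were computed after the data were seen. With counts from 69 upward in the 10 genes, the spread between libraries limited the precision more than counting error. Differences between pools and between amplifications cannot be told apart in that spread.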
